A study of Rattus norvegicus with 3 samples.

Results

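The gene expression of the rat parotid gland was set against that of the gland labelled submandibular, as 1 Agilent array of each out of the 3 arrays of the series, across all genes that the arrays name. Both arrays carry total RNA of normal male Wistar rats, 10 weeks old, prepared by column from gland pieces kept in an RNA-preserving solution; the third array carries sublingual gland RNA of the same kind. The series describes 3 rats, which of them an array stands for is not stated, and 500 ng of RNA entered each Cy3 labelling. Of 16134 genes with a matched probe, 10908 were well above background on at least 1 of the pair of arrays and were compared, and 9618 of these were measured on both. With 1 array per gland there is no replicate and no test, so every value below describes these arrays, and their number limits the precision.

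The parotid gland of the rat is built of serous acini, whose cells store a watery, protein-rich saliva of amylase, proline-rich proteins and nuclease in granules and release it on nervous stimulation. Mucous acini, the main type of the sublingual gland, make mucins, very large proteins that are covered with sugar chains in the Golgi and swell to a gel once released. The submandibular gland of the male rat is known for seromucous acini and for granular convoluted ducts, which secrete kallikreins and epidermal growth factor.

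Levels are given as log2 signal relative to the array's 75th percentile, so that 0 is that percentile, and differences are submandibular-labelled minus parotid on the log2 scale. In this comparison 305 genes (2.8% of those compared) had a level 4-fold or more above the other array on the parotid side and 314 (2.88%) on the submandibular-labelled side. At 2-fold or more the counts were 1202 (11%) and 1192 (10.9%), and less than 2-fold lay between the arrays for 78.1% of the compared genes. When the arrays were scaled to their medians instead, the median difference over all compared genes moved from 0.098 to 0.41 and the calls became 214 and 436, so that 32.9% rather than 49.3% of them were higher on the parotid array. The fold cut-offs below were applied to the 75th-percentile scaling without a shift, so calls near a cut-off depend on that choice. Below, a gene is parotid-high or submandibular-high by the stated fold, and 3 levels in a row are those of the parotid, submandibular-labelled and sublingual arrays in that order.

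More of the largest differences lay on the parotid side. At least 64-fold lay between the arrays for 35 genes higher on the parotid array and 20 higher on the other, and at least 10-fold for 109 and 95. A fold is a lower bound, written "at least", where the dim side was not well above background, which holds for 105 and 77 of the calls. For the called genes measured on both arrays, the error that the scanner software gives for a difference had a median of 0.22 on the parotid side and 0.21 on the other, with a highest value of 0.36, against the 2-unit step that 4-fold makes on the log2 scale. That error covers the spot alone and neither animals nor labelling. No spot was saturated, and 62.8% to 64.5% of genes were well above background per array.

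**Figure D1:**
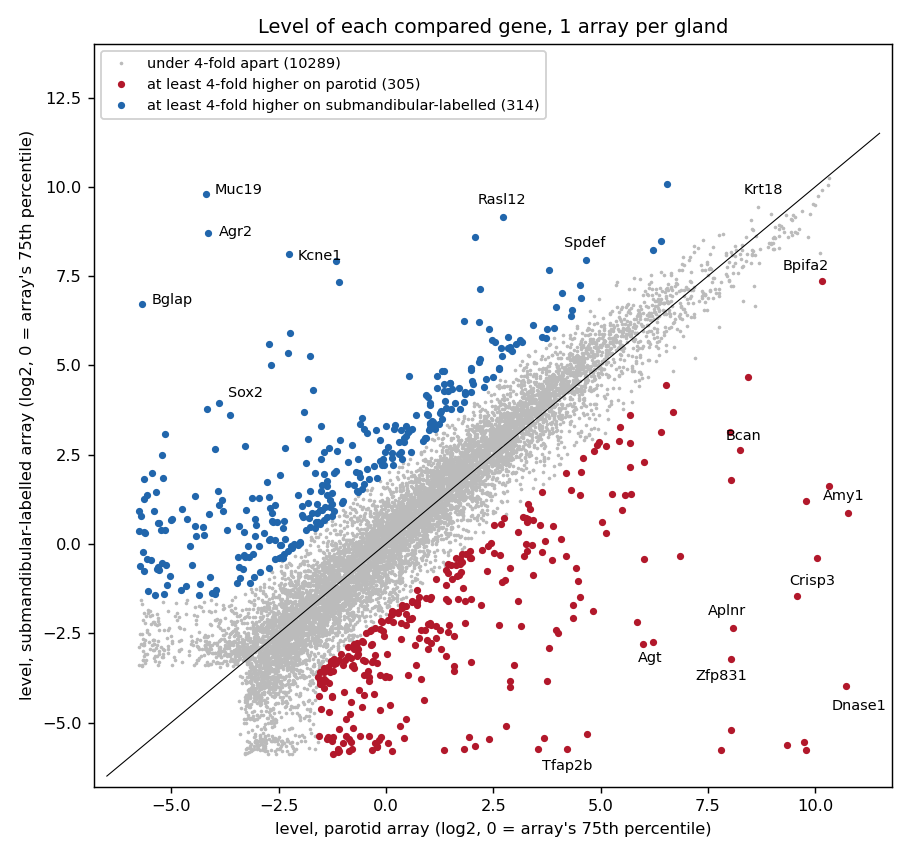
Level of each of the 10908 compared genes on the parotid array (x axis) and the submandibular-labelled array (y axis), both log2 with 0 at the array's 75th percentile, 1 array per gland. Red points (305) and blue points (314) are at least 4-fold apart, the line marks equal levels, and the named points far from it include Dnase1 at the lower right and Muc19 at the upper left.

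The second array was described with defining markers of cell types. Those lists were chosen with earlier results of these data known, so their counts are no independent check of its label. Of 9 serous acinar markers compared, 8 were parotid-high by 4-fold or more, beside 2.8% of all compared genes. Of 9 mucous acinar markers 8 were submandibular-high by 4-fold or more, beside 2.88%, while the mucin Muc5b was at least 4.46-fold parotid-high. Among the 8, Muc19, a mucin of mucous cells, was at -4.19, 9.80 and 9.71 (at least 9628-fold), and Agr2, a reticulum protein needed for mucin folding, at -4.13, 8.71 and 8.89 (at least 4544-fold). Tff3, a small peptide secreted with mucins, was also among the 8, but its submandibular-labelled spot was uneven. Its difference of 4.36 was 1.21 by the median of its probes, of which only the brightest was well above background on either array of the pair. None of 9 granular convoluted duct markers was 4-fold apart in either direction. The kallikrein Klk1 was at 7.54, 7.72 and 7.37, and Egf was at 2.62, 2.02 and 1.61. These duct products thus did not set that array apart from the parotid array, and few of the called genes, counted at the end, lay 2-fold or more from the sublingual array. Whether the label is right cannot be told from these values, and the array is called submandibular-labelled throughout. In whole-gland RNA, fewer cells of a type and less RNA per cell cannot be told apart.

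Secreted products of serous cells were among the largest differences. Of 24 listed serous products compared, 20 were parotid-high by 4-fold or more and 2 submandibular-high, beside 2.8% and 2.88% of all compared genes. The median difference was -7.92 against 0.098 over all compared genes. This list too was chosen with earlier results of these data known. The amylase Amy1, which cuts starch, was at 10.76, 0.88 and 2.15, 942-fold parotid-high. Pip, a prolactin-induced protein that binds bacteria and mucosal proteins, was at 10.33, 1.62 and 1.47, or 421-fold higher. Both were well above background on all arrays, so their folds are measured values. For Dnase1, a secreted nuclease, the levels were 10.71, -3.98 and 0.94, and the submandibular-labelled value was not well above background, so the fold of 20024 is a lower bound.

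The proline-rich protein genes, whose products bind tannins and coat the tooth surface, stood side by side in the genome. In rn4 coordinates, which the files give for the probes, chr4:169076651-169955805 held 8 compared genes, and 7 of them were parotid-high by 4-fold or more. Prb3 was at 9.78, 1.21 and 0.46, 381-fold parotid-high. Prpmp5 was at 8.02, 3.13 and 3.42 (29.6-fold), and Prb1 was at 2.08, -5.65 and -5.83 (at least 50.5-fold). Also in that span were Prp2, Prp25l1, Glal (14.1-fold) and Ybx3 (5.72-fold), a DNA- and RNA-binding protein that is no salivary product. Members of this family are close copies, and probes may share signal among them.

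A second chromosomal group was made of small lipid carriers. Of 8 compared genes in chr5:78090663-79290150 (rn4), 7 were parotid-high by 4-fold or more, and 6 of these belong to the major urinary protein family, also called alpha-2u globulins, which carry pheromones and other small hydrophobic molecules. Mup5 was at 6.01, -0.43 and -0.09, 87.0-fold parotid-high, which all 3 of its probes showed within a log2 range of -6.67 to -6.44. Mup4l3 was at 2.99, -3.39 and -2.21 (83.2-fold), and Mup4l1 was at 4.37, -1.72 and -0.89 (68.0-fold). Mup4l4 was 34.2-fold, Obp3 29.7-fold and Mup4 at least 30.6-fold higher. The seventh gene was Slc31a2, a copper transporter (7.05-fold). Whether probes share signal among the members of this family was not tested.

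Other lipocalins followed the same direction from chromosome 3. The von Ebner gland proteins Lcn1 and Vegp2, carriers of fatty acids and taste compounds known from lingual glands and tears, were at 3.68 and 3.54 on the parotid array. Neither was well above background on the other arrays, which gave at least 153-fold for Lcn1 and at least 139-fold for Vegp2. Lcnl beside them, in chr3:4829554-4881913 (rn4), was at least 4.65-fold higher, and all 3 compared genes of that span were called. Obp2b, an odorant-binding lipocalin, was at 4.69, -5.33 and -5.46, at least 308-fold parotid-high. Lcn1, Vegp2 and Obp2b were thus well above background on the parotid array alone. Shared signal between the probes of Lcn1 and Vegp2 was not tested.

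In all, 44 of the 300 genes with a position that were higher on the parotid array (14.7%) lay in 12 groups of at least 3 such genes, with each probe within 500 kb of the next. On the submandibular-labelled side the figures were 18 of 310 genes (5.81%) in 6 groups. No such share was computed over all compared genes, so these shares have no baseline. Not every group is a gene family: on chromosome 5, one held Rps7, Tnfrsf25 and Rnf207, which were 3 of the 15 compared genes in its span. Further parotid groups held the amylases Amy1, Amy2a3 and Amy2-ps2 in chr2:209327304-209553263, where all 3 compared genes were called, and Pip with Sval2 (at least 45.4-fold) and Kel (at least 6.61-fold) in chr4:69403446-69670060. Smr3a, Oprpn and Jchain lay in chr14:21125752-21573311 (all rn4). Shared signal among the amylase probes was not tested. Oprpn, a proline-rich salivary protein, was at 4.47, -1.03 and -3.31, and Jchain, the joining chain of secreted antibodies, at 3.32, 1.13 and 1.54.

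**Figure D2:**
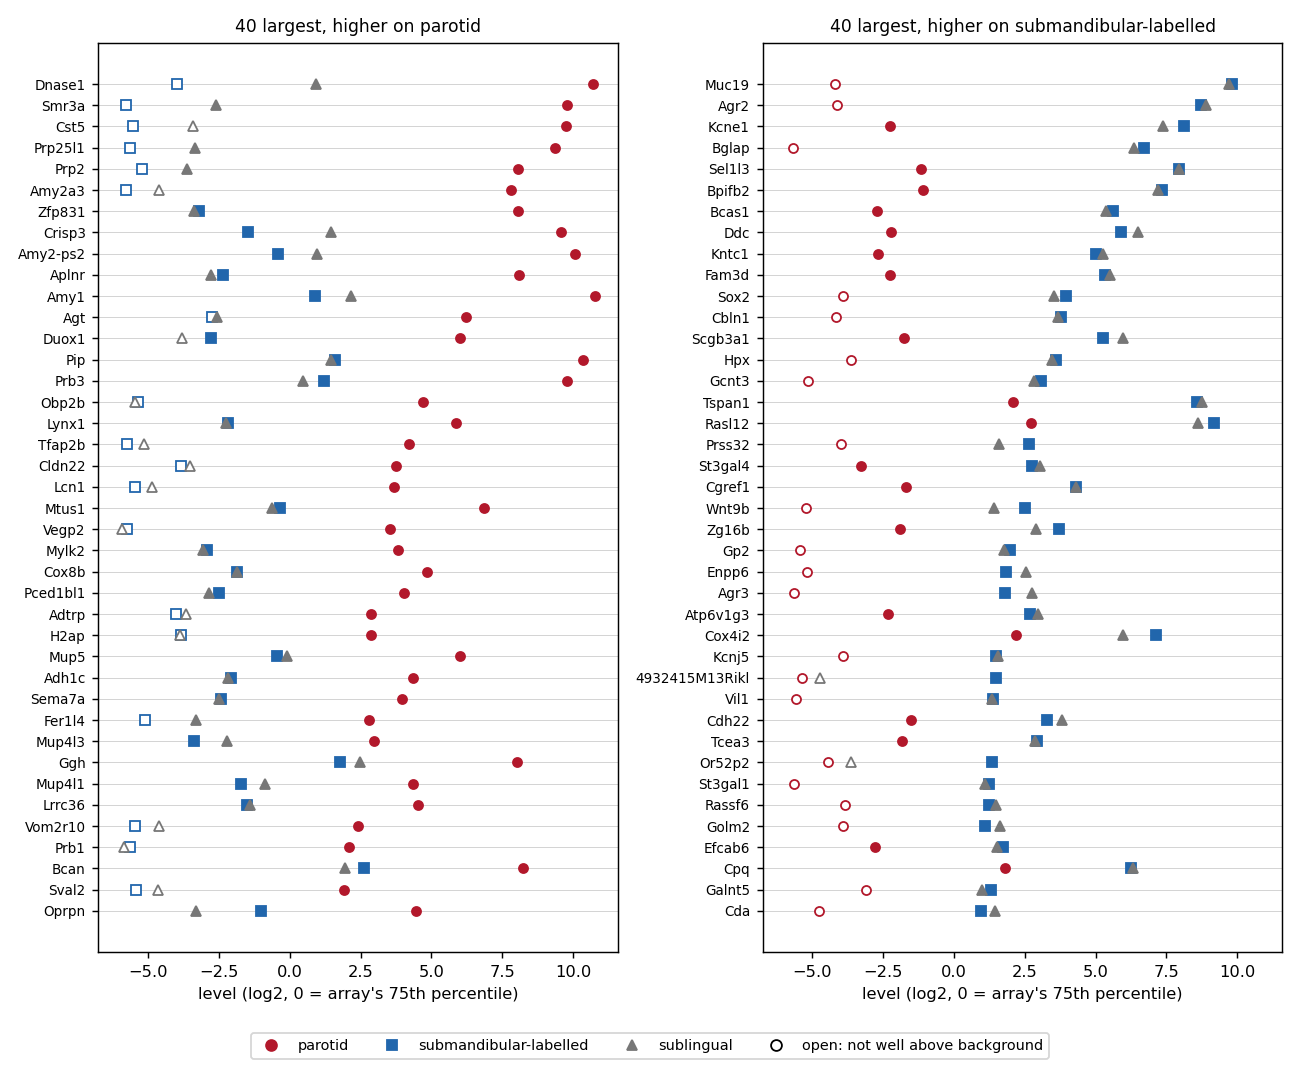
Levels (x axis, log2 with 0 at the array's 75th percentile) of the 40 named genes with the largest difference in each direction, on the parotid (circles), submandibular-labelled (squares) and sublingual (triangles) arrays, 1 array each; open symbols were not well above background. For most genes the sublingual symbol lies beside the submandibular-labelled one, while Dnase1 and Crisp3 on the left and Or52p2 and 4932415M13Rikl on the right stand apart.

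Many promoters of the leading parotid genes, though not all, held a sequence feature that the comparison did not use. The RefSeq promoter table (build GRCr8, 250 bases before to 50 after each gene's start) held 31 of the 40 genes with the largest difference on the parotid side and 32 of the 40 on the other. The motif TATAAA, the core of the TATA box, at which the general transcription machinery assembles, was searched on both strands. It occurred in 16 of 31 (51.6%) leading parotid promoters and 5 of 32 (15.6%) leading submandibular-labelled ones, beside 8.24% of the 8776 promoters of compared genes and 14.3% of all 27457. At its usual place, with the first base 40 to 20 bases before the start on the gene's own strand, it stood in 10 of 31 (32.3%) and 1 of 32 (3.13%), beside 1.64% of the compared genes. The 10 are Prp25l1, Prp2, Amy2a3, Obp2b, Lcn1, Vegp2, Cox8b, Mup4l3, Mup4l1 and Prb1, of which several are family copies and no independent examples. Median GC content was 44.0% in the 31, 55.2% in the 32 and 60.3% over the compared genes, and its part in these shares was not tested. Over all genes 4-fold or more apart, the share with the motif anywhere was 19.4% on the parotid side and 12.8% on the other. The other motifs searched on both strands were TGTTTAC, in 3.23% of the 31, 3.13% of the 32 and 2.39% of compared genes, CAGCTG, in 19.4%, 21.9% and 15.8%, and CCACG, in 25.8%, 31.2% and 45.5%. A match is a description of the letters and shows neither a working site nor a cause.

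The 80 bases before the start are shown for members of the 4 secretory families above and for 3 leading genes of the submandibular-labelled side, 5′ to 3′ on the gene's strand, with each TATAAA in capitals.
Prp2: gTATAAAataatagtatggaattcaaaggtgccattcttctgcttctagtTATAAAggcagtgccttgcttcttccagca
Prp25l1: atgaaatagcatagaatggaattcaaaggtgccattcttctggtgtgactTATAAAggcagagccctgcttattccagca
Amy2a3: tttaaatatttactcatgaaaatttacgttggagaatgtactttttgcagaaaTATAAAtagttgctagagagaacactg
Lcn1: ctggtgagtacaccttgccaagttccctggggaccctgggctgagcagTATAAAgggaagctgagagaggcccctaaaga
Vegp2: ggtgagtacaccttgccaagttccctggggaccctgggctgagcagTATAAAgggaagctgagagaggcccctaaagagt
Mup4l3: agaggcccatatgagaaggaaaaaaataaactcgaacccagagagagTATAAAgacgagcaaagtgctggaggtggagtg
Muc19: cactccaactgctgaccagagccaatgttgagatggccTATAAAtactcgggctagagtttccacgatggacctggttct
Agr2: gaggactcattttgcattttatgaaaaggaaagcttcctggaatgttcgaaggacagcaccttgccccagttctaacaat
Bpifb2: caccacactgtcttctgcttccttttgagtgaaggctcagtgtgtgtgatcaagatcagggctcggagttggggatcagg
In GRCr8 these lie at chr4:167331411-167331490 (Prp2, plus strand), chr4:167469038-167469117 (Prp25l1, plus), chr2:204014413-204014492 (Amy2a3, minus), chr3:29930863-29930942 (Lcn1, plus) and chr3:29919163-29919242 (Vegp2, minus). The others lie at chr5:80318373-80318452 (Mup4l3, minus), chr7:124897344-124897423 (Muc19, plus), chr6:58435828-58435907 (Agr2, plus) and chr3:162818143-162818222 (Bpifb2, plus). The motif nearest the start begins 30 bases before it in Prp2 and Prp25l1, 27 in Amy2a3, 32 in Lcn1, 34 in Vegp2 and 33 in Mup4l3, and 42 before it in Muc19. Agr2 and Bpifb2 have none in this stretch. The parotid sequences were chosen to show the motif: over this stretch 12 of the 31 leading parotid promoters hold it, as do 3 of the 32 on the other side, and Amy1 and Prb3 of the same families, like Dnase1, Smr3a and Cst5, have none. Over the 250 bases before their starts, Lcn1 and Vegp2 share an unbroken run of 225 bases, Mup4l1 and Mup4l3 one of 36 and Prp2 and Prp25l1 one of 27, while the longest run shared by Prp2 and Amy2a3 is 8 bases.

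**Figure D3:**
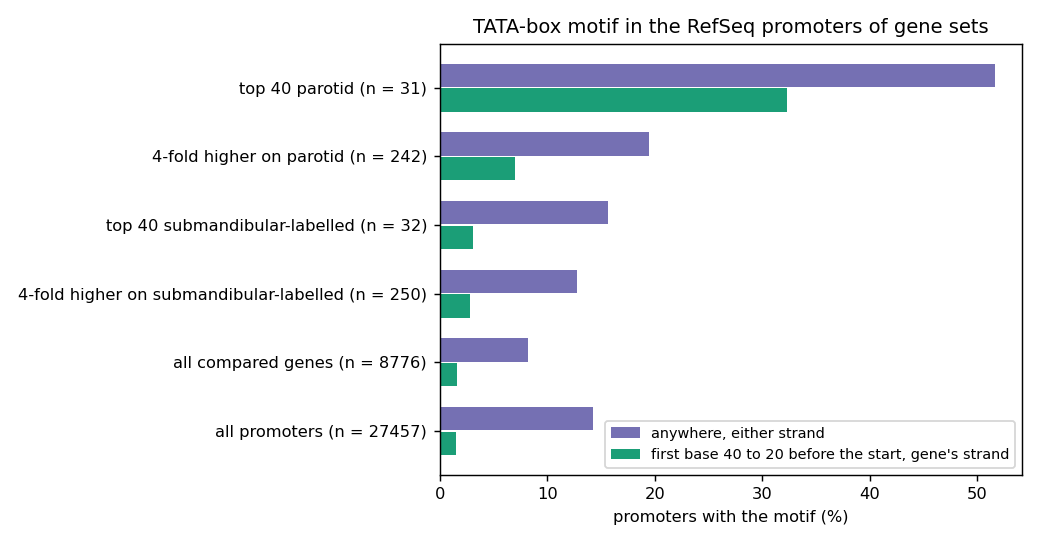
Percent of RefSeq promoters (x axis) that hold the TATA-box motif anywhere on either strand (purple) or at its usual place on the gene's strand (green), for gene sets named with the number of promoters (y axis). The 31 promoters of leading parotid genes reach 51.6% and 32.3%, beside 8.24% and 1.64% for all compared genes.

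Several of the genes furthest above the submandibular-labelled level on the parotid array are not known as salivary products. Tfap2b, a transcription factor of the AP-2 family, was at 4.23 on the parotid and at -5.73 and -5.13 on the other arrays, at least 223-fold higher. Lynx1, a membrane-anchored modulator of nicotinic receptors, was at 5.86, -2.17 and -2.23 (262-fold). The claudin Cldn22 of tight junctions was at 3.76 on the parotid array and not well above background on the others (at least 162-fold). Mylk2, a myosin light chain kinase, was 105-fold higher and Sema7a, a membrane-anchored semaphorin, 84.0-fold higher. Each of these genes has 1 probe, so no other probe checks it.

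Enzymes and a hormone precursor followed on the parotid side. Adh1c, an alcohol dehydrogenase that also acts on retinol, was at 4.36, -2.06 and -2.17 (86.1-fold). Ggh, which trims the glutamate tail of folates, was at 8.03, 1.78 and 2.48 (76.0-fold), and Adtrp, an esterase of hydroxy fatty acid esters, was at least 87.9-fold higher, with both probes at least 2-fold apart. Agt, angiotensinogen, was at 6.22, -2.74 and -2.57 (at least 498-fold). Duox1, an oxidase that supplies hydrogen peroxide to peroxidases, was 442-fold parotid-high, with -2.79 and -3.79 on the other arrays. Its paralogue Duox2 went the other way, at -4.57, -0.06 and -0.24 (at least 10.3-fold submandibular-high). Lpo, a salivary peroxidase, was at 5.56, 1.38 and 0.39 (18.2-fold).

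Probes of 1 gene did not always give 1 answer. Of the parotid calls, 45 have at least 2 probes well above background; in 43 of them every such probe lay on the parotid side, and in 33 every one did so by at least 2-fold. On the submandibular-labelled side the figures were 64, 58 and 43, and no gene in either set had a probe 2-fold apart the opposite way. The Mtus1 difference was -7.19 with its brightest probe and -0.44 with another. For Cox8b, a muscle form of a cytochrome oxidase subunit, these were -6.70 and -0.11. Zfp831 gave -11.26 and 0.11, Rasl12 6.44 and 0.36, and Cdh22 4.81 and -0.46. The large values of these 5 genes rest on 1 probe each. Bcan, a proteoglycan, was at 8.24, 2.62 and 1.96 with its brightest probe, and the median over its 3 probes gave -0.15 in place of -5.62. Its other probes were not well above background on either array of the pair, so they give no second measurement.

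The largest differences on the submandibular-labelled side after Muc19 and Agr2 were of mixed function. Kcne1, a regulatory subunit of potassium channels, was at -2.26, 8.11 and 7.36 (1317-fold), and Bglap, osteocalcin, known as a bone matrix protein and hormone, at -5.68, 6.72 and 6.36 (at least 1138-fold). Sel1l3 was 545-fold, Bcas1 319-fold and Fam3d 196-fold submandibular-high. Ddc, the cytosolic enzyme that makes dopamine and serotonin, was at -2.23, 5.90 and 6.51 (280-fold). Lower in that order, Sox2, a transcription factor of progenitor cells, was at -3.90, 3.96 and 3.54, at least 168-fold submandibular-high. Cbln1, a secreted protein known from synapses, was at -4.17, 3.78 and 3.67 (at least 149-fold), and Scgb3a1, a secretoglobin of airway secretory cells, was at -1.76, 5.27 and 5.98 (131-fold). For Hpx, the heme-binding plasma protein hemopexin, the difference was at least 131-fold. Tspan1, a tetraspanin of epithelial membranes, was at 2.09, 8.59 and 8.76, or 90.8-fold higher and measured on every array. Parotid levels of Sox2, Cbln1 and Hpx were not well above background.

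Further members of that set were the protease Prss32 (-3.99, 2.66 and 1.58, at least 68.3-fold), the Wnt ligand Wnt9b (-5.22, 2.50 and 1.42, at least 61.2-fold) and the lectin-like Zg16b (-1.91, 3.70 and 2.91, 49.0-fold). Zg16b had been listed among serous products, and Bpifa2f, listed there too, was at 6.56, 10.09 and 10.07, 11.6-fold submandibular-high. Its neighbour Bpifa2 went the other way, at 10.16, 7.36 and 6.41 (6.98-fold parotid-high). Both belong to the BPI-fold group of chr3:144273504-144433379 (rn4), where 3 of 5 compared genes were submandibular-high by 4-fold or more and 2 parotid-high. Bpifb2, 345-fold submandibular-high, and Bpifb6, at least 20.3-fold, are the others on that side.

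Kcnj5 and Vil1 add a channel and a cytoskeletal protein. Kcnj5, an inward rectifier potassium channel, was at -3.92, 1.49 and 1.56 (at least 30.4-fold), and Vil1, villin, which bundles actin in microvilli, at -5.56, 1.38 and 1.35 (at least 28.2-fold). The proton pump subunit Atp6v1g3 was at -2.34, 2.68 and 2.98, or 32.4-fold higher. Cox4i2, an isoform of a cytochrome oxidase subunit known from lung, was at 2.19, 7.13 and 5.95 (30.7-fold). Cpq, a carboxypeptidase, was at 1.82, 6.24 and 6.32 (21.4-fold). In each of these genes the sublingual value lay nearer the submandibular-labelled than the parotid value.

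Many nucleotide sugar genes were higher on the submandibular-labelled array. Nucleotide sugars are the activated sugars that Golgi transferases add to proteins. Of 31 compared genes that make or carry them, 7 were submandibular-high by 4-fold or more and 18 by 2-fold or more, beside 2.88% and 10.9% of all compared genes. None was 4-fold and 1 was 2-fold parotid-high, beside 2.8% and 11%. The median difference was 1.24 against 0.098 over all compared genes. For sialic acid, Gne, the enzyme that commits UDP-GlcNAc to its synthesis, was at 4.52, 7.25 and 7.07 (6.66-fold). Nans, the next synthase, was at 1.98, 4.94 and 5.17 (7.77-fold), the activating enzyme Cmas higher by 2.30-fold and the Golgi carrier Slc35a1 at 1.02, 3.96 and 4.40 (7.68-fold). All 4 of these genes were thus higher.

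The same held for other sugars. For fucose, Gmds was at 3.22, 4.45 and 4.18 (2.35-fold) and Gfus, the second enzyme of GDP-fucose synthesis, at 0.14, 2.54 and 2.70 (5.29-fold). Gfpt1, the entry enzyme of the hexosamine route, was 3.40-fold, Gnpnat1 3.01-fold and Uap1 2.93-fold higher. Mpi, which feeds mannose, was at 0.48, 3.30 and 3.17 (7.09-fold), and the UDP-GlcNAc carrier Slc35a3 at -0.28, 2.19 and 2.93 (5.55-fold). Ugdh, which makes UDP-glucuronic acid for glycosaminoglycans, was the 1 member parotid-high by 2-fold or more, at 0.96, -0.33 and -0.82.

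Of 20 sugar-capping transferases, 4 were submandibular-high by 4-fold or more and 1 parotid-high, beside 2.88% and 2.8% of all compared genes. Their median difference took either sign over the scalings. The 4 are sialyltransferases: St3gal4 was at -3.28, 2.76 and 3.04 (65.8-fold), St3gal1 at -5.63, 1.25 and 1.08 (at least 25.7-fold), St6gal1 at 1.36, 4.84 and 4.61 (11.2-fold) and St3gal5, which makes the ganglioside GM3, at 1.03, 3.35 and 3.39 (5.01-fold). St3gal6 was 4.42-fold parotid-high. The branching enzymes of mucin glycans also went both ways: Gcnt3 was at least 92.0-fold submandibular-high and Gcnt1 5.81-fold parotid-high.

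Several genes of transport from the endoplasmic reticulum to the Golgi were higher on the submandibular-labelled array. Of 34 coat and Golgi genes compared, 3 were higher there by 4-fold or more and 11 by 2-fold or more, beside 2.88% and 10.9% of all compared genes. Only 1 was 2-fold parotid-high, beside 11%, and the median was 0.77. Sec23b, of the COPII coat that buds vesicles from the reticulum, was at 2.55, 5.66 and 5.43 (8.61-fold). Preb, which loads the coat's small GTPase, was at 0.95, 3.64 and 3.59 (6.45-fold), and the GTPase Sar1a at 3.30, 4.68 and 5.35 (2.61-fold). Kdelr3, a retrieval receptor, was 6.20-fold higher with its brightest probe and at a log2 difference of 1.23 with the median of its probes. Mcfd2, the partner of the cargo receptor Lman1, was the member parotid-high by 2-fold or more (2.70, 1.17 and 0.92).

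Of 47 genes of reticulum entry and folding, 41 lay within 2-fold, beside 78.1% of all compared genes, with a median of 0.22. Pdia5, a disulfide isomerase, was at 0.70, 3.60 and 3.50 (7.48-fold), and Creb3l1, a membrane-bound transcription factor of secretory capacity, was at 3.45, 5.09 and 4.77 (3.11-fold). Ero1b, which oxidises disulfide isomerases, was 2.31-fold parotid-high.

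Cholesterol synthesis genes at several steps of the pathway were higher on the submandibular-labelled array. Of 31 lipid and cholesterol genes compared, 14 were higher there by 2-fold or more and 3 by 4-fold or more, beside 10.9% and 2.88% of all compared genes. Only 1 was parotid-high by 2-fold or more, beside 11%, and the median was 0.85. Hmgcs1 was at 1.83, 3.98 and 4.14 (4.43-fold). Mvd was 3.66-fold, Idi1 2.90-fold, Fdps 2.85-fold, Sqle 2.84-fold and Cyp51 2.28-fold higher. Insig1, the sterol-sensing brake that these genes' own regulator turns on, was at 2.89, 5.51 and 5.84 (6.15-fold). Of fatty acid synthesis, Acly was 2.76-fold, Fasn 2.72-fold and Elovl6 3.86-fold higher. The desaturase Scd went the other way, at least 2.45-fold parotid-high.

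Amino acid synthesis and breakdown differed by gene. Of 30 genes compared, 8 were parotid-high by 2-fold or more and 4 submandibular-high, beside 11% and 10.9% of all compared genes. At 4-fold or more none was parotid-high and 3 were submandibular-high, beside 2.8% and 2.88%, and the median was -0.27. Those 3 are Ddc, given above, Arg2 and Gls2, enzymes that take amino acids as their substrate. Of the route from glutamate to proline, the abundant residue of proline-rich proteins, Aldh18a1 was at 4.65, 3.34 and 3.04 (2.48-fold parotid-high), Pycr3 at 1.97, 0.68 and 0.57 (2.44-fold) and Pycr1 at 0.06, -0.96 and -1.52 (2.03-fold). Oat, which joins ornithine to that route, was 2.31-fold higher, and Phgdh and Asns, which make serine and asparagine, were 2.15-fold higher each. Prodh, which breaks proline down, was at 1.58, 2.77 and 3.26, or 2.29-fold submandibular-high. Arg2, a mitochondrial arginase, was at -1.85, 2.27 and 2.36 there (17.4-fold), and Gls2, a glutaminase, at 2.68, 5.48 and 6.12 (6.99-fold). With median scaling the list's median was 0.04, against 0.41 for all compared genes. The differences of Aldh18a1 and Pycr3 were then -0.997 and -0.97, under 2-fold.

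**Figure D4:**
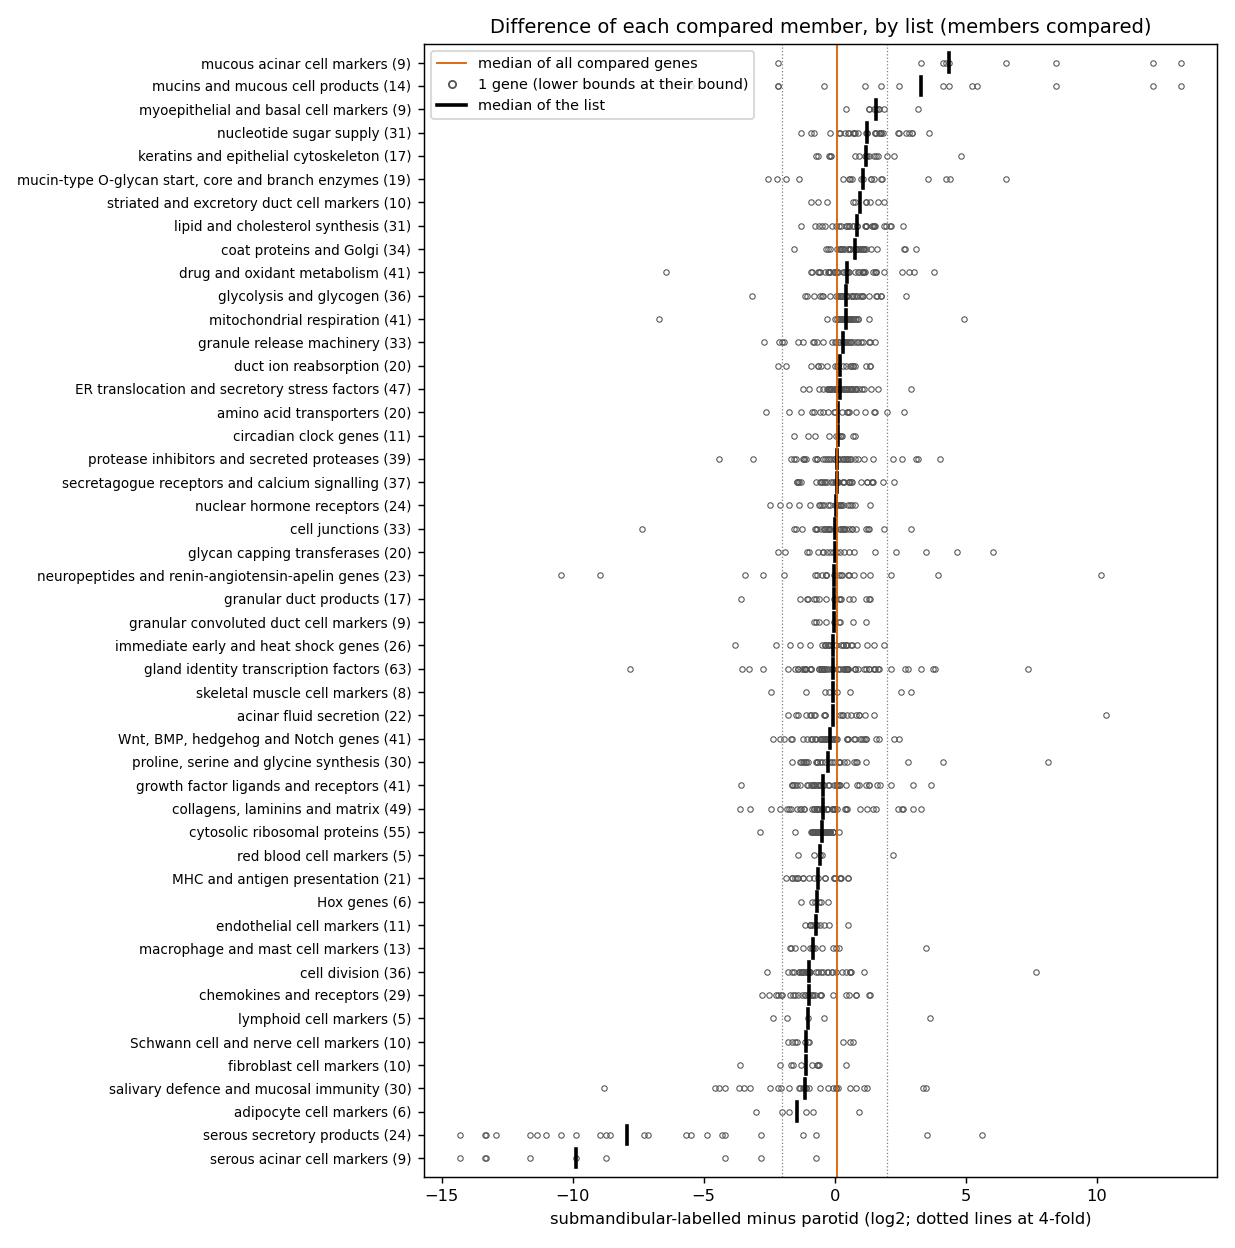
Difference of each compared gene (circles; submandibular-labelled minus parotid, log2, x axis) by list (y axis, number compared in brackets), with the list's median as a bar, 1 array per gland. The orange line is the median of all compared genes (0.098) and dotted lines mark 4-fold; the serous lists lie to the left, the mucous lists and nucleotide sugar supply (1.24) to the right.

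Granule release genes differed at a few points. Of 33 compared, 2 were parotid-high by 4-fold or more and none submandibular-high, beside 2.8% and 2.88% of all compared genes. At 2-fold or more 6 were parotid-high and 5 submandibular-high, and the median was 0.32. Over the processing settings tried, the 4-fold parotid count ran from 0 to 3, and neither of the 2 genes stayed 4-fold apart in all of them. Scg5, a granule chaperone of prohormone convertase, was at 0.60, -2.08 and -1.65 (6.41-fold), and Myo5c, a motor of exocrine granules, at 4.97, 2.85 and 3.64 (4.36-fold). Rab26 was at 5.11, 3.11 and 2.96 (3.99-fold), and Bhlha15, the transcription factor of serous secretory cells, at 5.14, 3.74 and 3.35 (2.65-fold). Stxbp2 and Rab27b were 2.10-fold and 2.02-fold submandibular-high.

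Peptide signals and their receptors went both ways. Of 23 compared, 4 were parotid-high by 4-fold or more and 3 submandibular-high, beside 2.8% and 2.88% of all compared genes. Among the 3, Bglap, given above, differed most. The apelin receptor Aplnr was at 8.08, -2.35 and -2.76 (1382-fold), whereas its ligand Apln was at -0.68, 1.47 and 0.99, 4.45-fold submandibular-high. Npy, neuropeptide Y, was at -0.60, 3.35 and 3.13 (15.4-fold higher there). Penk, which encodes enkephalins, was at least 10.8-fold parotid-high. Its log2 difference of -3.43 was -1.36 by the median of its probes, of which only the brightest was well above background on either array of the pair. Next to Agt, the peptidase Enpep, which trims angiotensin, was at 3.07, 0.34 and 0.08, with a difference of -2.73, while its other probes gave -3.19 and -0.04.

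Growth factor genes went both ways, and the largest differences shrank with the median of a gene's probes. Ntrk2, the receptor of brain-derived neurotrophic factor, was at -2.59, 1.09 and -0.17, so its difference was 3.68, and 1.57 by the probes' median. Ret, the receptor of glial-derived factors, was at -3.31, -0.31 and 0.48 (3.00, and 0.52 with the median of its probes). Fgf2 was at least 12.0-fold parotid-high (0.01, -3.69 and -3.59). Its log2 difference was -1.11 with the median of its probes, of which only the brightest was well above background on either array of the pair. In all, 3 of 41 compared were submandibular-high by 4-fold or more and 1 parotid-high, beside 2.88% and 2.8% of all compared genes. The median was -0.43.

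Many epithelial structure genes were higher on the submandibular-labelled array. Of 17 keratin and cytoskeletal genes, 10 were at least 2-fold higher there and none was 2-fold parotid-high, beside 10.9% and 11% of all compared genes. The median was 1.19. The basal keratin Krt5 was at 3.15, 4.72 and 4.70, and Krt7, a duct keratin, at 5.79, 7.46 and 7.15. Myoepithelial and basal markers were at least 2-fold higher in 8 of 9 and duct markers in 5 of 10, with medians of 1.57 and 0.98. Their part in the keratin values was not tested.

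Matrix genes went both ways. Of 49 matrix genes, 4 were parotid-high by 4-fold or more and 5 submandibular-high, beside 2.8% and 2.88% of all compared genes. The median was -0.45. Lama5, a laminin chain of epithelial basement membranes, was at 0.46, 3.03 and 2.88 (5.93-fold). Lamb3 was at 0.00, 3.30 and 3.14, but its 3 probes gave differences from -0.53 to 3.71. With quantile normalization, where the brightest probe was picked from the 2 compared arrays alone, its difference of 3.30 turned to -0.70. Whether a change of probe gave that value was not tested. The small proteoglycans Fmod and Prelp were 7.95-fold and 5.40-fold submandibular-high, and Thbs4, a thrombospondin, was 6.12-fold. The 4 parotid-high genes were other proteins of connective tissue: Postn was at 0.05, -5.58 and -3.83 (at least 12.3-fold), Spp1 at 0.83, -2.40 and -2.22 (9.38-fold), Fn1 at 2.37, -0.05 and 0.43 (5.35-fold) and Col1a1 at 6.51, 4.44 and 4.82 (4.22-fold). Fibroblast markers, some of which are these same genes, were parotid-high by 2-fold or more in 5 of 10, beside 11% of all compared genes. Their median was -1.09.

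Many immune genes were higher on the parotid array. Of 29 chemokines and receptors, 6 were higher there by 4-fold or more and 14 by 2-fold or more, beside 2.8% and 11% of all compared genes. None was 4-fold and 2 were 2-fold higher on the other array, and the median was -0.97. Over the processing settings tried, the 4-fold count on the parotid side ran from 1 to 6. Cxcl12, which holds lymphocytes and plasma cells in tissue, was at 4.85, 2.61 and 3.00 (4.74-fold), and Cxcl9, an interferon-induced attractant of T cells, at -0.80, -5.76 and -3.85 (at least 6.87-fold). Ccl2, an attractant of monocytes, was at -0.37, -2.43 and -0.43, so that the sublingual level lay beside the parotid one. Among 21 antigen presentation genes, 8 were parotid-high by 2-fold or more, none submandibular-high, with a median of -0.62. The class II genes RT1-Bb (3.65-fold) and RT1-Da (4.64, 3.00 and 2.82) and their invariant chain Cd74 (5.70, 4.29 and 3.93) were among the 8.

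Markers of other cell types differed by list. Endothelial markers lay within 2-fold in 10 of 11, and skeletal muscle markers had a median of -0.06. Of 4 plasma cell markers compared, all were parotid-high by 2-fold or more and 3 by 4-fold or more, beside 11% and 2.8% of all compared genes. Among the 3 were Tnfrsf17 (1.66, -0.90 and 0.43) and Mzb1 (0.15, -1.88 and -1.29). Over the processing settings the 4-fold count ran from 1 to 3, and the Fkbp11 difference went from -1.05 to -0.74 with median scaling. Of 5 lymphoid markers compared out of 13 with a probe, 3 were at least 2-fold higher on the parotid and 1, Cd52 (-3.31, 0.32 and 0.77), on the submandibular-labelled array. Among the 3, the Cd3d difference of -1.03 was -0.72 with median scaling. Of 13 macrophage and mast cell markers, 4 were parotid-high by 2-fold or more, and Cd14 (1.19, 4.70 and 4.42), also an epithelial gene, was submandibular-high. Adipocyte markers were parotid-high by 2-fold or more in 4 of 6, led by Retn (at least 7.89-fold), and Schwann cell and nerve markers in 6 of 10. The part of these cells in the immune, matrix and peptide values was not tested.

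Cell division and ribosomal protein genes had medians on the parotid side. Of 36 cell division genes, 15 were parotid-high by 2-fold or more and 2 submandibular-high, beside 11% and 10.9% of all compared genes. The median was -0.96. Mcm2, of the DNA replication helicase, was at -0.10, -1.37 and -1.57, and the mitotic kinase Cdk1 at 0.94, -0.32 and -0.05. Kntc1, a kinetochore gene, went the other way at -2.67, 5.01 and 5.26, 205-fold submandibular-high with its only probe. Of 55 cytosolic ribosomal protein genes, 53 lay within 2-fold, beside 78.1% of all compared genes, with a median of -0.47. Rps24 was at 8.32, 6.81 and 7.87 and Rps3 at 8.05, 7.21 and 8.03, with sublingual values nearer the parotid ones. Rps7, the list's 1 gene that was 4-fold apart, was at 5.69, 2.83 and 3.20 (7.25-fold parotid-high), with the sublingual value nearer the submandibular-labelled one. Across the scalings the ribosomal median, relative to all compared genes, ranged from -0.61 to -0.29.

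Detoxification genes were led by single enzymes. Of 41 compared, 15 were submandibular-high by 2-fold or more and 1, Adh1c, parotid-high, beside 10.9% and 11% of all compared genes. The median was 0.49. Cyp2a3, a cytochrome P450 of airway epithelium, was at -5.76, 0.35 and 0.41 (at least 13.8-fold), Cyp2f4 at 1.49, 4.52 and 4.10 (8.13-fold) and Mgst2, a microsomal glutathione transferase, at 2.88, 5.45 and 5.77 (5.92-fold). Of 63 transcription factors compared, 7 were submandibular-high by 4-fold or more and 4 parotid-high, beside 2.88% and 2.8% of all compared genes. At 2-fold or more the counts were 16 and 14, beside 10.9% and 11%, and the median was -0.06. Foxa3, a forkhead factor of endodermal glands, was at -5.61, 0.32 and 0.44 (at least 13.5-fold), Tbx3 at -3.18, -0.37 and -0.71 and Klf4 at 1.23, 3.37 and 3.80 (4.43-fold). Ascl2 was 9.57-fold parotid-high (3.26, 0.00 and -0.26).

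A few called genes had a sublingual level away from the submandibular-labelled one. Of the 305 genes higher on the parotid array, 226 could be compared between those 2 arrays and 25 of them lay at least 2-fold apart, 19 with the sublingual level higher and 6 with it lower. Crisp3, a cysteine-rich secretory protein, was at 9.57, -1.46 and 1.46, and Dnase1 and Amy1, given above, were also among the 19. Of the 314, 15 lay at least 2-fold apart, 2 with the sublingual level higher and 13 with it lower, among them Spt1, a salivary protein gene (-5.30, -0.64 and -3.13). In 4 of the 13, namely 4932415M13Rikl, Or52p2, Tff3 and Ndst3, the submandibular-labelled spot was uneven: its pixels varied by 39.5%, 59.7%, 31.6% and 42.9%, against a median of 16.8% over that array. Those 4 were not well above background on either other array.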

How the data were processed

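Levels were compared between 1 parotid and 1 submandibular-labelled array, with the sublingual array beside them. The deposited intensity values per spot are, per the file headers, from Agilent Feature Extraction 10.1.1.1 (protocol GE1-v5_10_Apr08, array design 014879, coordinates in rn4). The authors' value table gives each spot a linear ratio, which is its processed signal over a constant, 190 for the parotid and 236 for the submandibular-labelled array, with medians of 0.152 and 0.122. The sources used here do not give the authors' steps to it.

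The log2 of the deposited processed signal was taken for spots that are no controls and carry no outlier flag, averaged per probe and reduced by the array's 75th percentile (signals of 186 and 228). Of 41012 probes, 20631 matched 1 gene of the RefSeq table (GRCr8, names and promoters only), and the brightest probe stood for a gene. A dim side that was not well above background entered the fold as the higher of its own level and the lowest level well above background there (-3.43 and -3.58). Named were the 40 largest differences per direction, up to 6 members of each of 49 lists with markers that explain a list, genes whose sublingual level lay apart, and chromosomal groups; any other member was picked with its values in view. Members and lists were chosen with earlier results of these data known. Alternatives used limma 3.58.1 for normexp (offset 50). Counting steps were tested on simulated data. Python 3.11.15, pandas 2.3.3 and matplotlib 3.10.9 were used.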

Additional observations from a re-analysis of the deposited data

Results flagged for a closer look

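Probes that matched no gene of the RefSeq table entered no comparison above, and many of them differed. Of 10156 such probes compared, 347 (3.42%) were higher by 4-fold or more on the parotid array and 218 (2.15%) on the submandibular-labelled array. With the descriptions in the files, a probe for carbonic anhydrase VI, the secreted enzyme that buffers saliva, was at 10.08, 1.19 and 0.15 in the order of arrays used above (475-fold). A probe for an alpha-2u globulin, of the family on chromosome 5 above, was at 3.20, -3.83 and -2.55 (at least 110-fold). In the other direction, a probe for a gene like the cargo receptor ERGIC-53 was at -0.64, 8.79 and 9.11 (692-fold), and both probes for an ovostatin-like protease inhibitor were higher, at 2.23, 9.77 and 9.65 (186-fold) and at -2.13, 6.54 and 6.04 (406-fold). These probes were chosen after their values were seen.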

How the results depend on the processing

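The 4-fold counts were 305 on the parotid side and 314 on the submandibular-labelled side. They became 134 and 196 with normexp background correction, 616 on the parotid side with plain differences over all genes, 701 and 588 by probes, 1202 and 1192 at 2-fold and 109 and 95 at 10-fold; 200 on the parotid side were measured on both arrays. The other counts stayed within 1.5 times, among them those without uneven spots, a choice made after seeing the data (300 and 310). No call turned to a call in the other direction. Of 184 named genes at least 4-fold apart, 124 stayed so under all 7 other settings, and 318 of 325 named genes kept their sign. Lamb3 reversed to -0.70 with quantile normalization. Of 49 list medians relative to all compared genes, 39 kept their sign. No paired analysis was possible because each group is 1 array, and no array could be left out. Dim genes limit precision: 110 of 305 calls on the parotid side and 52 of 314 on the other have their bright level below the array's 75th percentile.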
